A study of Arabidopsis thaliana with 12 samples.

Results

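The chloroplast of Arabidopsis thaliana carries its own genome, and 69 of its protein-coding genes had a probe set of their own on the Affymetrix ATH1 array, which holds 22810 probe sets in all. A gene was taken where the platform annotation assigned a probe set to that plastid gene alone, and each of the 69 genes had exactly 1 such probe set. A probe set was tested where its signal lay above the array's 40th percentile on at least 3 arrays. This held for 67 plastid genes of 14495 tested probe sets, and rps14 (a protein of the small ribosomal subunit) and ndhF (an NDH subunit) did not pass. By complex, the tested genes were 5 of photosystem I (psa), 15 of photosystem II (psb), 9 of the NDH complex (ndh), 6 of the ATP synthase (atp), 6 of the cytochrome b6f complex (pet), 4 of the plastid RNA polymerase (rpo), 7 of the small ribosomal subunit (rps), 7 of the large one (rpl) and 8 others.

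Plastid genes are inherited from a cyanobacterial ancestor and are mostly transcribed as clusters of neighbours, which are then cut, edited and trimmed into individual messages. They are read by a bacterial-type polymerase whose core the plastid itself encodes and by a phage-type polymerase encoded in the nucleus. The photosynthetic complexes are built from plastid and nuclear subunits together, so that both genomes supply the thylakoid membrane. Stable plastid messages carry no long poly(A) tail, and short tails there mark RNA for decay.

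The arrays held RNA of whole seedlings of the wild type (WT, Col-0) and of 46T, a line that overexpresses the transcription factor WRKY46, each as untreated controls and after 1 h of dehydration. Seedlings were 1 week old, and all had grown in days of 16 h of light (24 °C) and nights of 8 h (21 °C). Dehydration meant 1 h on filter paper at 22 °C and 60% humidity in dim light, so drying, handling and the change of light cannot be told apart, and the labels give no such transfer for the controls. Each of the 4 groups had 3 arrays, which the labels call biological replicates. The promoter behind the overexpression and the number of independent lines are not given in the sources used here, and no probe set is named for WRKY46, so its level was not checked. RNA was labelled with a kit that copies it from the poly(A) tail, and the share of a plastid message that this reaches was not tested. In whole seedlings, fewer plastid-bearing cells, fewer plastids and less RNA per plastid cannot be told apart.

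The values are log2 signals, and 1 unit is a doubling. Two-sided tests were made with limma over all 14495 tested probe sets, with Benjamini-Hochberg adjustment, and a gene was called at an adjusted p below 0.05. Errors of differences are standard errors (SE) of that fit, and the number of arrays limits their precision. Levels of different genes come from different probes and were not set against each other.

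WT control arrays 1 and 2 stood furthest apart from the rest, as the heat map of all 67 genes by array shows. On WT control array 1, 14 of the 67 genes were below and 14 above every other array, 41.8% together, and 47.4% of all tested probe sets lay outside the range of the other arrays there. On WT control array 2, 33 genes were below every other array and 0 above, 49.3% against 20.7% of all probe sets. The median deviation of the plastid genes from their own means was -0.36 there, and between -0.13 and 0.23 on the other 11 arrays. WT dehydrated array 1 had 1 gene below and 20 above every other array, 31.3% against 17.4% of all probe sets. The mean of the poly-A labelling controls was highest on WT control array 1, at 8.85, and ran from 7.78 to 8.85 in WT and from 7.71 to 7.94 in 46T. The 3' minus 5' difference of the GAPDH probe sets was between -0.03 and 0.20 on all arrays and the 25S rRNA signal between 13.46 and 14.04. The highest GAPDH difference was that of WT control array 1, and the next highest was 0.12, on 46T dehydrated array 3. For the actin probe sets this difference was highest on WT control array 2, followed by WT control array 1 at 2.23. It was lowest on WT control array 3, at 2.05. The 3' minus 5' difference of the ubiquitin probe sets moved with dehydration, from 0.37, 0.63 and 0.58 to 0.20, 0.24 and 0.39 in WT and from 0.44, 0.66 and 0.80 to 0.13, 0.13 and 0.23 in 46T, where the groups did not overlap. The part of these measures in the dehydration and line differences was not tested.

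**Figure D1:**
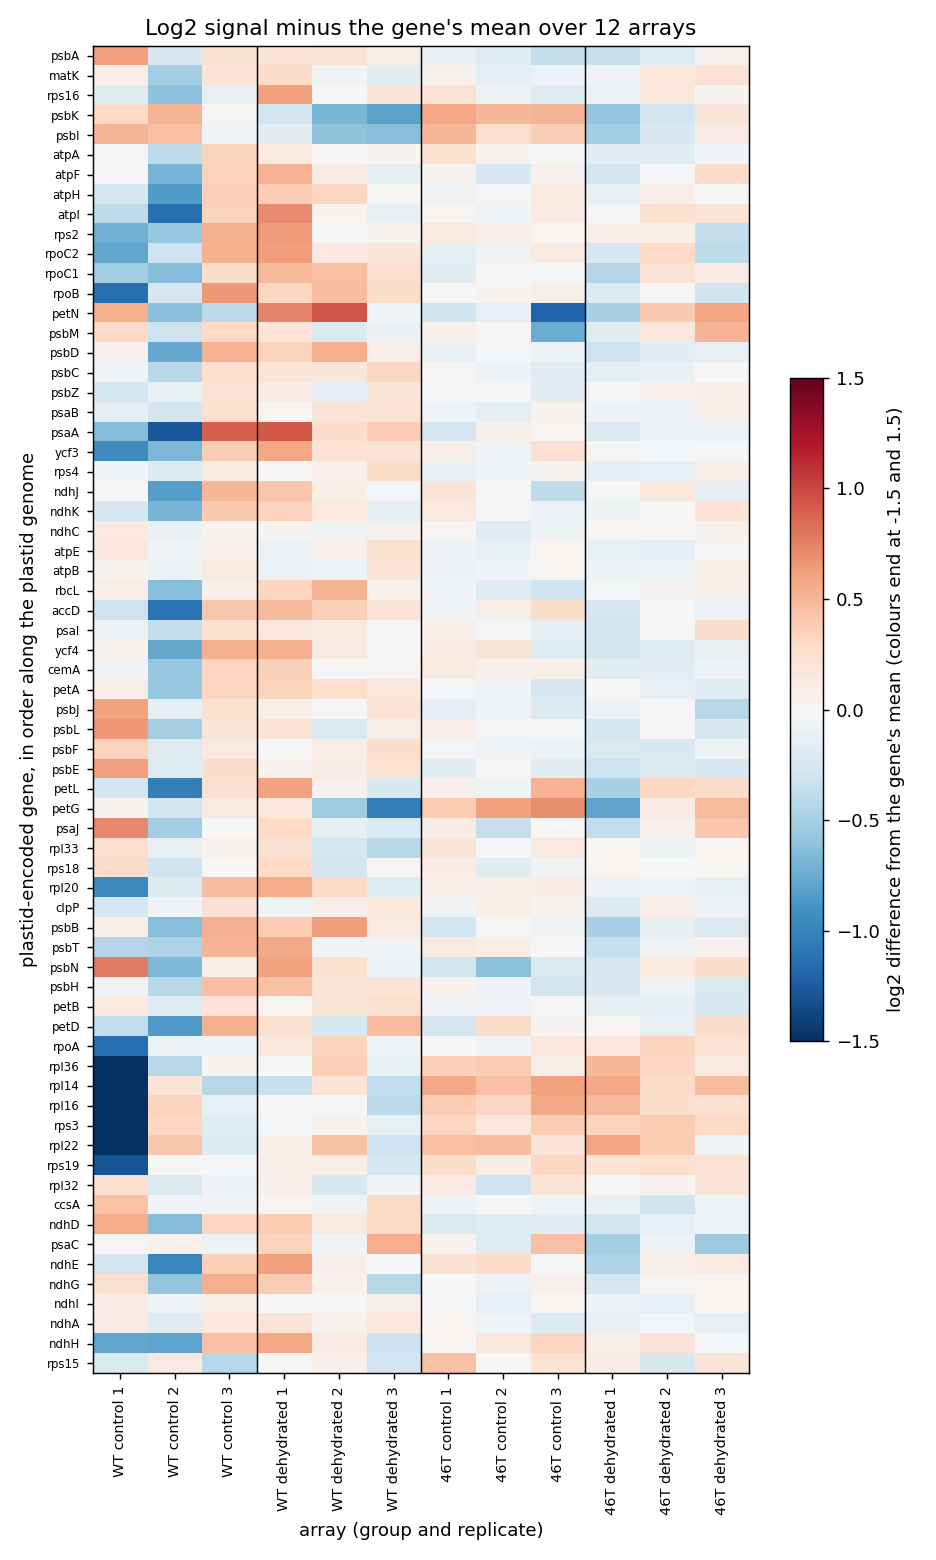
Log2 signal of each of the 67 tested plastid-encoded genes (vertical axis, in genome order) minus its mean over 12 arrays, for each array (horizontal axis), from blue (lower) to red (higher), with colours ending at -1.5 and 1.5. The block of blue from rpoA to rps19 lies on WT control array 1, and most of the column of WT control array 2 is blue.

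The first question was how 1 h of dehydration changed plastid messages in WT. The messages of psbK and psbI, small membrane subunits of photosystem II whose genes are neighbours in 1 transcription unit, fell. No plastid gene was called as higher. The 2 called genes were 2.99% of the 67, against 11.6% of all tested probe sets called in either direction and 4.3% called as lower. Another 65 genes did not pass, and their differences leaned upward: the median over the 67 was 0.27, with 51 above 0, against a median of -0.02 over all probe sets. Unadjusted p-values below 0.05 were found for 12 genes, 17.9% against 26.5% of all probe sets. The size of this median depended on single arrays: it was 0.17, 0.05 and 0.47 without WT control array 1, 2 or 3, 0.15 without WT dehydrated array 1 and -0.04 with arrays weighted by their quality.

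Within photosystem II, psbK read 13.27, 13.47 and 12.99 on the WT control arrays and 12.68, 12.29 and 12.16 after dehydration. All 3 dehydrated arrays were below all 3 controls. The fall was 1.83-fold (log2 difference -0.87 ± 0.19 SE; limma adjusted p = 0.00952). The message of psbI read 12.95, 12.88 and 12.39 in WT controls and 12.26, 11.82 and 11.79 after dehydration. These groups did not overlap either, although WT control array 3 lay close to the first dehydrated array. The fall was 1.72-fold (-0.78 ± 0.19; limma adjusted p = 0.0163). The 3' minus 5' difference of the ubiquitin probe sets, given above, was also lower after dehydration, with overlap between the groups in WT and none in 46T, and its part in these falls was not tested.

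In 46T psbK again had the lowest difference of the 67 genes, followed by petG and psbI. It read 13.55, 13.47 and 13.48 in controls, a narrow range, and 12.38, 12.69 and 13.17 after dehydration. The groups did not overlap, and the dehydrated arrays were spread widely. The fall was 1.68-fold (-0.75 ± 0.19; limma adjusted p = 0.0221), and psbK was the only plastid gene called in 46T. For psbI the 46T control arrays read 12.93, 12.69 and 12.80 and the dehydrated ones 11.93, 12.21 and 12.55. The groups were again apart, but the difference of -0.58 ± 0.19 was not called (limma adjusted p = 0.071). The test of the difference between the lines' responses gave 0.12 ± 0.27 for psbK and 0.20 ± 0.27 for psbI, both with a limma adjusted p of 1.

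The fall of psbK in WT was called in 22 of 22 alternative settings, with values from -1.04 to -0.67. That of psbI in WT was called in 19 of 22 and lost without WT dehydrated array 2 (adjusted p = 0.0743), without WT dehydrated array 3 (0.056) or when only the WT arrays were fitted (0.061; limma in each). In 46T, psbK lost its call when any 1 of 5 arrays was left out, with values from -0.77 to -0.57 and limma adjusted p-values from 0.0664 to 0.128; these were the 3 controls and dehydrated arrays 1 and 2. It was also lost when arrays were centred on the median of the plastid genes (-0.58; limma adjusted p = 0.274). psbI in 46T was called in 6 of 22 settings.

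**Figure D2:**
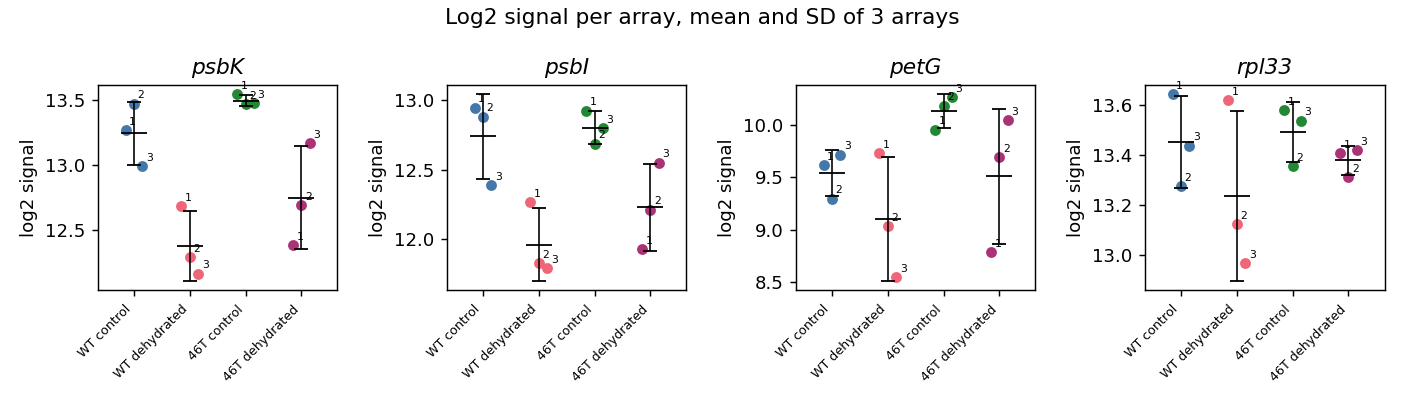
Log2 signal (vertical axis) of psbK, psbI, petG and rpl33 on each of the 12 arrays by group (horizontal axis); points are arrays with their replicate number, bars the mean and SD of 3. For psbK and psbI every dehydrated array lies below every control of the same line, while petG and rpl33 overlap between control and dehydrated arrays.

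After removing each array's median over the plastid genes, psbK and psbI followed each other closely, with a Pearson correlation of 0.98 over the 12 arrays and 0.99 without WT control array 1. These 12 points include the dehydration difference itself and share arrays and scaling, so the value is a description. Of the 66 other genes, those next most like psbK were petG, a small subunit of the cytochrome b6f complex (0.81), and rpl33, of the large ribosomal subunit (0.76). For psbI the order was rpl33 (0.82), then petG (0.73). In 46T, petG read 9.95, 10.18 and 10.26 in controls and 8.79, 9.70 and 10.04 after dehydration. The groups overlapped and the difference of -0.63 ± 0.31 was not called (limma adjusted p = 0.234). In WT it was -0.44 ± 0.31, and that of rpl33 was -0.22 ± 0.15 in WT and -0.11 ± 0.15 in 46T, none of them called.

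The other 13 photosystem II genes were not called after dehydration in either line. In WT the highest differences were those of psbD and psbB, which encode a reaction-centre protein and an inner antenna protein (each 0.37 ± 0.24), and psbC, the other inner antenna protein (0.31 ± 0.14; limma adjusted p = 0.185). The lowest after psbI was psbJ, a small subunit, at -0.15 ± 0.17. In 46T the highest were psbN, which serves in assembly of the reaction centre (0.42 ± 0.29), psbM, a small subunit (0.39 ± 0.23), and psbZ, another small subunit (0.11 ± 0.13). The lowest after psbI was psbT, also a small subunit, at -0.20 ± 0.24. The median over the 15 psb genes was 0.03 in WT and -0.13 in 46T. The median in WT was 0.15 without WT control array 1 and -0.18 without WT control array 2.

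In photosystem I, psaA, which encodes a reaction-centre core protein, had the highest difference of all 67 genes in WT. It read 9.59, 8.98 and 11.14 in WT controls and 11.16, 10.51 and 10.62 after dehydration. WT control array 3 lay among the dehydrated arrays, so the groups overlapped, and the difference of 0.87 ± 0.38 was not called (limma adjusted p = 0.165). It was 1.48 and called without WT control array 3 (limma adjusted p = 0.0011). In 46T the value was -0.08 ± 0.38. psaC, the stromal iron-sulphur subunit, read 8.55, 8.59 and 8.45 in WT controls and 8.87, 8.50 and 9.07 after dehydration. In 46T it read 8.58, 8.34 and 8.97 in controls and 8.02, 8.44 and 7.99 after dehydration. The groups overlapped within each line, and the differences of 0.28 ± 0.20 and -0.48 ± 0.20 were not called. psaJ, a small subunit, was lowest in WT and highest in 46T of the 5 psa genes, at -0.08 ± 0.27 and 0.11 ± 0.27.

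Of the cytochrome b6f complex, which links the photosystems, petN, a small subunit, was the highest member in both lines. Its differences were 0.71 ± 0.38 in WT and 0.71 ± 0.38 in 46T (limma adjusted p = 0.257 and 0.282), and petG was the lowest in both. In 46T controls petN ranged from 6.73 to 7.80 and after dehydration from 7.45 to 8.52, so the ranges overlapped. In the ATP synthase, atpI, a membrane subunit, was highest in both lines (0.60 ± 0.29 in WT, 0.09 ± 0.29 in 46T). The lowest were atpB in WT (-0.02 ± 0.10) and atpA in 46T (-0.20 ± 0.15), which encode the alternating subunits of its head. The 46T arrays of atpA met at 13.26 to 2 decimals without overlapping, with controls up to 13.52 and dehydrated arrays down to 13.13.

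The NDH complex carries electrons around photosystem I. Limma called 0 of its 9 tested genes in either line, with 0 at an unadjusted p below 0.05 in each. Over all probe sets, 11.6% in WT and 10.2% in 46T were called. An unadjusted p below 0.05 was found for 26.5% and 24.3% of them. In WT the 3 highest were ndhE (0.53 ± 0.28), ndhH (0.50 ± 0.29) and ndhK (0.30 ± 0.22), and the 3 lowest ndhG (-0.07 ± 0.26), ndhI (-0.01 ± 0.09) and ndhC (-0.01 ± 0.11). ndhE read 10.22, 9.53 and 10.86 in WT controls and 11.12, 10.58 and 10.50 after dehydration. WT control array 2 was the lowest of all 12 arrays and the groups overlapped. In 46T the 3 highest were ndhC (0.11 ± 0.11), ndhJ (0.09 ± 0.26) and ndhD (0.04 ± 0.23), and ndhE was the lowest (-0.26 ± 0.28), followed by ndhH (-0.08 ± 0.29) and ndhG (-0.06 ± 0.26).

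**Figure D3:**
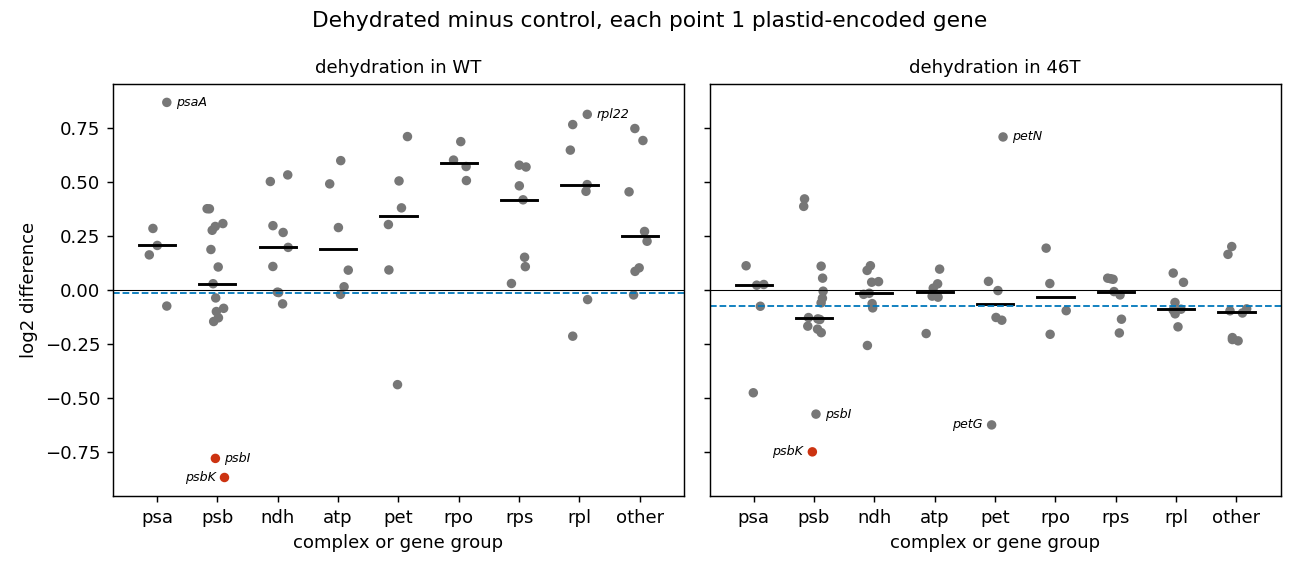
Log2 difference, dehydrated minus control (vertical axis), of the 67 plastid-encoded genes by complex (horizontal axis) in WT (left) and 46T (right); each point is 1 gene, red where called by limma, the bar is the group's median and the dashed line the median over all 14495 tested probe sets (-0.02 and -0.07). The called points are psbK and psbI in WT and psbK in 46T.

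Genes of the plastid's own expression machinery had positive medians in WT, and limma called 0 of the 18, against 11.6% of all probe sets. Unadjusted p-values were below 0.05 for 2 rpo genes, 1 rps gene and 1 rpl gene, against 26.5% of all probe sets. All 4 polymerase genes were above 0, with a median of 0.58. rpoC1, which encodes a part of the catalytic core, read 11.98, 11.84 and 12.77 in WT controls and 12.98, 12.94 and 12.73 after dehydration. WT control array 3 lay above the lowest dehydrated array. The difference of 0.68 ± 0.22 just missed the threshold (limma adjusted p = 0.0586) and passed without 46T dehydrated array 1 (0.68; 0.041) or WT control array 3 (0.97; limma adjusted p = 0.00506). The lowest of the 4 was rpoC2, another core subunit (0.50 ± 0.28). The medians of the 7 rps and 7 rpl genes were 0.42 and 0.49. Without WT control array 1 the medians were 0.21 for rpo, 0.15 for rps and -0.03 for rpl. In 46T the rpo, rps and rpl medians were -0.03, -0.01 and -0.09, between rpoB (-0.21 ± 0.35) and rpoA (0.19 ± 0.22), between rps15 (-0.20 ± 0.19) and rps18 (0.05 ± 0.17), and between rpl20 (-0.17 ± 0.27) and rpl32 (0.08 ± 0.16).

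In WT the highest ribosomal genes were rpl22 (0.81 ± 0.50; -0.03 without WT control array 1 and 1.39 without WT control array 2) and rps16 (0.58 ± 0.20; limma adjusted p = 0.0741), and the lowest were rpl33, given above, and rps18 (0.03 ± 0.17). The WT control and dehydrated arrays of rps16 did not overlap, at 8.06 to 8.56 against 8.67 to 9.28. Those of rpoA, which encodes the polymerase's assembly subunit, met at 13.21 to 2 decimals without overlapping, with controls down to 12.13 and dehydrated arrays up to 13.59 (0.57 ± 0.22; limma adjusted p = 0.117). With psbK and psbI these made 4 genes without overlap, 5.97% against 26.3% of all probe sets. In 46T it was 12 genes, 3 higher and 9 lower, or 17.9% against 40.2%, and the member count called, 1 of 67 or 1.49%, stood against 10.2% of all probe sets called in either direction and 3.5% called as lower. The median over the 67 genes in 46T was -0.04, with 25 above 0, and -0.07 over all probe sets.

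Among the remaining genes, rbcL, which encodes the large subunit of Rubisco, read 12.97, 12.25 and 12.99 in WT controls and 13.21, 13.41 and 12.95 after dehydration. The groups overlapped and the difference of 0.45 ± 0.18 was not called (limma adjusted p = 0.122), though it was without WT control array 1 (0.57; adjusted p = 0.0433). In 46T rbcL read 12.85, 12.71 and 12.59, then 12.86, 12.93 and 12.96. These did not overlap, but the difference was 0.20 ± 0.18 and not called (limma adjusted p = 0.56). The highest of this group in WT was ycf3, which serves in photosystem I assembly, at 0.75 ± 0.25 (limma adjusted p = 0.0709). Next was accD, a subunit of the acetyl-CoA carboxylase of fatty acid synthesis, at 0.69 ± 0.27. The lowest were ccsA, for attachment of haem to cytochrome c, in WT (-0.02 ± 0.14) and cemA, an envelope membrane protein, in 46T (-0.24 ± 0.18).

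How far the count in WT depends on 1 array is seen without WT control array 3, the highest of the 3 WT controls for most plastid genes: 16 genes were then called, 14 higher and 2 lower, or 23.9% of the 67 against 12.1% of all probe sets in that setting. The 14 were atpH, atpI, rps2, rpoC2, rpoC1, rpoB, psbC, psaA, ycf3, accD, rpl20, rpl36, ndhE and ndhH, with ycf3 at 1.14 and accD at 1.06. Without WT control array 2, rpoA was called besides psbK and psbI (0.74, limma adjusted p = 0.0493), 4.48% of the 67 against 11.3% of all probe sets.

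The interaction asked whether the response to dehydration differed between the lines. Limma called 0 of the 67 genes and 0 of all 14495 probe sets (0%), with unadjusted p-values below 0.05 for 3 plastid genes (4.48%) and 291 probe sets (2.01%). The 3 genes were accD (-0.91 ± 0.38), ycf3 (-0.84 ± 0.35) and psaC (-0.76 ± 0.29), each with a limma adjusted p of 1. accD read 11.22, 10.43 and 11.94 in WT controls and 12.02, 11.89 and 11.75 after dehydration. In 46T it read 11.50, 11.63 and 11.81, then 11.28, 11.54 and 11.45. In WT the controls reached from below to within the dehydrated arrays, and in 46T the dehydrated arrays overlapped the lower controls.

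The lowest interaction in each complex was that of psaA (-0.94 ± 0.54), psbB (-0.54 ± 0.33), ndhE (-0.79 ± 0.39), atpH, a ring subunit (-0.52 ± 0.31), petL, a small subunit (-0.64 ± 0.43), rpoB (-0.81 ± 0.50), rps2 (-0.62 ± 0.38), rpl22 (-0.87 ± 0.70) and accD. The highest were psaJ (0.19 ± 0.38), psbM (0.52 ± 0.33), ndhC (0.12 ± 0.15), atpB (0.03 ± 0.15), petN (-0.00 ± 0.54), rpoA (-0.38 ± 0.32), rps18 (0.02 ± 0.24), rpl32 (0.12 ± 0.22) and matK, the intron maturase (0.06 ± 0.24). The median was -0.26 over the 67 genes, with 52 below 0, and -0.04 over all probe sets. It was -0.09 without WT control array 2, -0.47 without WT control array 3 and 0.01 with array weights. Leaving out WT control array 1, the interaction of rpl22 was -0.03, that of rpoB -0.36 and that of ycf3 -0.58, and the medians of the rpl and rpo genes went from -0.63 and -0.63 to -0.03 and -0.33. Leaving out WT control array 2, psaA was at -0.48, accD at -0.53, ndhE at -0.45 and psbB at -0.22, and the psb and ndh medians were 0.03 and 0.04. rpoB was above its array's 40th percentile on 7 of the 12 arrays.

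The second question was how the lines differed. In control seedlings, limma called 0 of the 67 genes, against 0.359% of all probe sets. An unadjusted p below 0.05 was found for 8, or 11.9% against 13.7% of all probe sets. The median was 0.05 over the plastid genes (0.10, -0.07 and 0.18 without WT control array 1, 2 or 3, and -0.18 with array weights) and 0.07 over all probe sets, and by complex the rpl genes stood highest, with a median of 0.96 and all 7 above 0. The rps median was 0.33, rpo 0.26, pet 0.10, atp 0.09, psa 0.04, ndh -0.07 and psb -0.11. These medians depended on single arrays: without WT control array 1 they were 0.27 for rpl and -0.01 for rpo, and without WT control array 2 they were -0.10 for atp, -0.14 for pet, -0.11 for psa and -0.35 for psb. This comparison shares the WT control arrays with that of dehydration in WT, and the rpl genes were high in both.

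The genes behind this were rpl14 (1.36 ± 0.42; limma adjusted p = 0.24), rpl22 (1.11 ± 0.50), rpl16 (1.04 ± 0.41), rpl36 (0.96 ± 0.31), rps3 (0.88 ± 0.37), rps19 (0.67 ± 0.26) and rpoA (0.46 ± 0.22), which belong to 1 transcription unit that starts at rpl23. On WT control array 1, all 7 were below every other array. rpl22 read 10.36, 13.20 and 12.58 in WT controls and 12.86, 13.23 and 12.47 after dehydration. In 46T it read 13.24, 13.25 and 12.98 in controls and 13.38, 13.17 and 12.75 after dehydration. WT control array 1 lay 6.99-fold below the median of the other 11 arrays, which covered less than 1 log2 unit.

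For rpl14 the WT controls read 10.32, 12.75 and 12.13 and the 46T controls 13.12, 12.99 and 13.16. All 46T controls were above all WT controls, and WT control array 1 lay 5.74-fold below the median of the other arrays. The log2 distance of that array from the median of the others was -2.33 for rpl16, -2.21 for rps3, -1.81 for rpl36, -1.40 for rps19 and -1.29 for rpoA. The leading genes of the unit, rpl2 and rpl23, have probe sets assigned to both copies in the inverted repeat and are not among the 67. On the same array they differed from the median of the others by 0.02 and -0.20.

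Without WT control array 1 the median line difference of the 7 genes in control seedlings went from 0.96 to 0.27, and their median dehydration difference in WT from 0.57 to -0.03. Without WT control array 2 the median line difference was 1.34 and 5 of the 7 were called, in a setting where calls over all probe sets went from 52 to 1640 (rpl14 at 1.86, rpl22 at 1.69, rpl16 at 1.51, rps3 at 1.34 and rps19 at 0.89), the lowest limma adjusted p being 0.0099. In dehydrated seedlings the median of the 7 was 0.25, between 0.08 and 0.62, and 0 were called. The WT controls do not enter that difference but share the fit's estimate of the spread, and the lowest limma adjusted p was 0.631 with all arrays and 0.082 without WT control array 1.

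**Figure D4:**
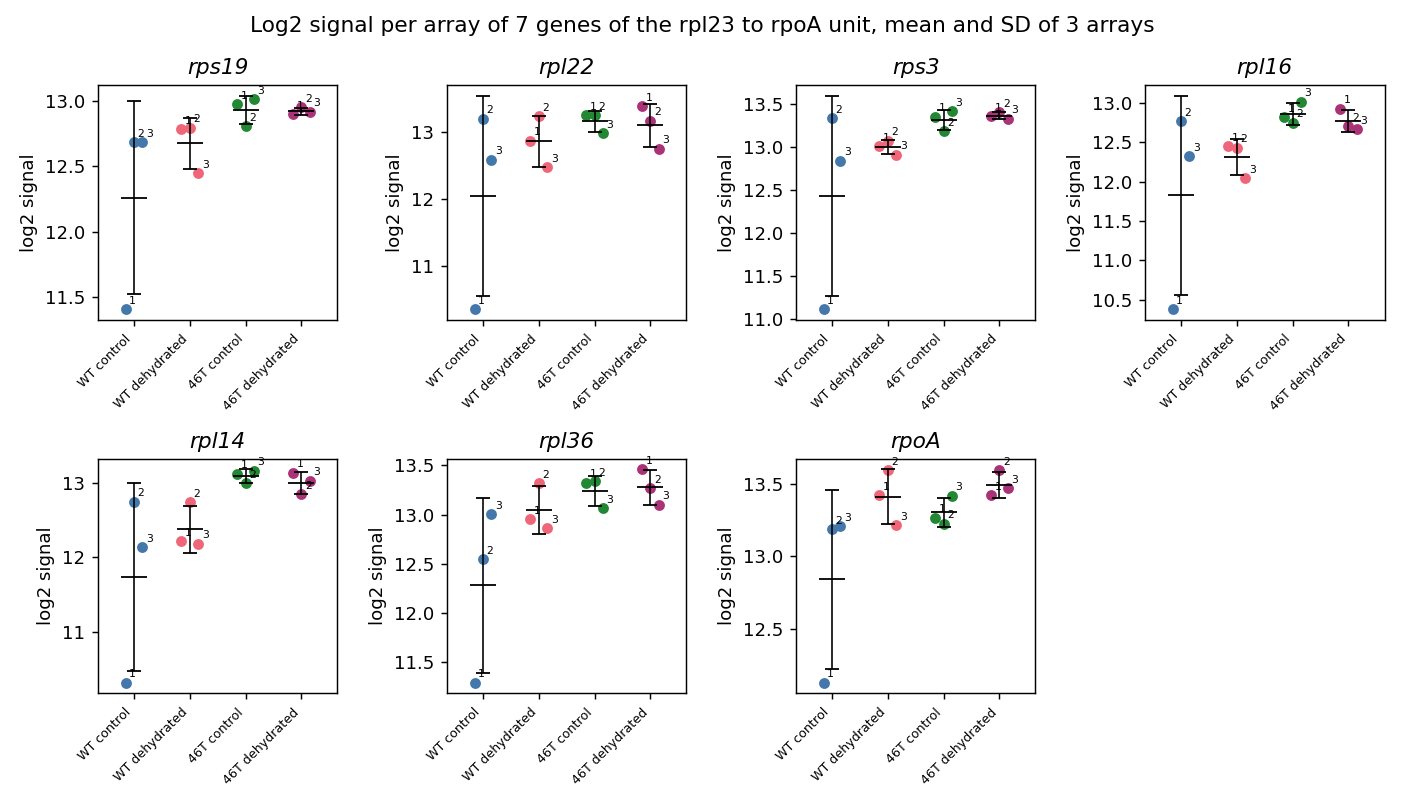
Log2 signal (vertical axis) of 7 plastid genes of the rpl23 to rpoA unit on each of the 12 arrays by group (horizontal axis); points are arrays with their replicate number, bars the mean and SD of 3. In every panel WT control array 1 is the lowest point, between 1.04 and 2.12 below the next lowest array.

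Other plastid genes lay at the opposite end on the same array. WT control array 1 was above every other array for psbN, by 0.86 over the median of the others, psbE, which encodes part of a cytochrome of photosystem II (0.78), psaJ (0.73) and psbA, the reaction-centre protein that turns over fastest in light (0.71). Of all tested probe sets, 18.1% were above every other array there. In the line comparison in control seedlings, psbN (-0.43 ± 0.29) and psbA (-0.42 ± 0.18) were the lowest plastid genes. psbA read 13.06, 12.21 and 12.66 in WT controls and 12.34, 12.26 and 12.08 in 46T controls, so WT control array 2 lay within the range of 46T. Without WT control array 2, limma called psbA (-0.63), psbN (-0.80), psbJ (-0.56), psbE (-0.55) and ndhD (-0.63) lower in 46T, which with the 5 above made 10 genes, or 14.9% of the 67. In that setting 11.3% of all probe sets were called, against 0.359% with all arrays. Leaving out WT control array 3, ycf3 alone was called (0.91, limma adjusted p = 0.024), 1.49% of the 67 against 0.386% of all probe sets.

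In the other complexes the ends of the line difference in control seedlings were psaA (0.29 ± 0.38) and psaJ (-0.14 ± 0.27), psbK (0.25 ± 0.19) and psbN, ndhH (0.54 ± 0.29) and ndhD (-0.27 ± 0.23), atpI (0.43 ± 0.29) and atpE (-0.10 ± 0.10), petG (0.59 ± 0.31) and petN (-0.38 ± 0.38), and ycf3 (0.51 ± 0.25) and ccsA (-0.16 ± 0.14). The lowest of the expression machinery were rpoC2 (0.17 ± 0.28), rps18 (-0.02 ± 0.17) and rpl32 (0.03 ± 0.16). Control arrays of the lines did not overlap for rpl14, rpl36, rps19, petG and rpoA, all higher in 46T: 7.46% of the 67 against 15% of all probe sets.

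After dehydration the differences between the lines leaned the other way. Limma called 0 of the 67 genes, against 0.152% of all probe sets. An unadjusted p below 0.05 was found for 8, or 11.9% against 9.64% of all probe sets. The median was -0.18, with 49 below 0, against 0.03 over all probe sets, and -0.09 without WT dehydrated array 1. The arrays of the lines did not overlap for 25 genes, 21 lower and 4 higher in 46T, or 37.3% against 23.3% of all probe sets. In dehydrated seedlings the poly-A labelling controls were also lower in 46T without overlap, with group means of 8.35 in WT and 7.83 in 46T. The 25S rRNA signal was too, with means of 13.93 and 13.65. The 3' minus 5' differences of GAPDH, actin and ubiquitin overlapped between the lines there. The part of these measures in the line differences was not tested. The 4 genes higher in 46T without overlap were rps19, rps3, rpl16 and rpl14, while the 21 lower included 7 of the 15 psb genes and 5 of the 8 others. The medians were -0.43 for rpo, -0.28 for psb, -0.27 for the others, -0.22 for pet, -0.17 for psa, -0.16 for atp, -0.10 for ndh, 0.00 for rps and 0.23 for rpl.

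**Figure D5:**
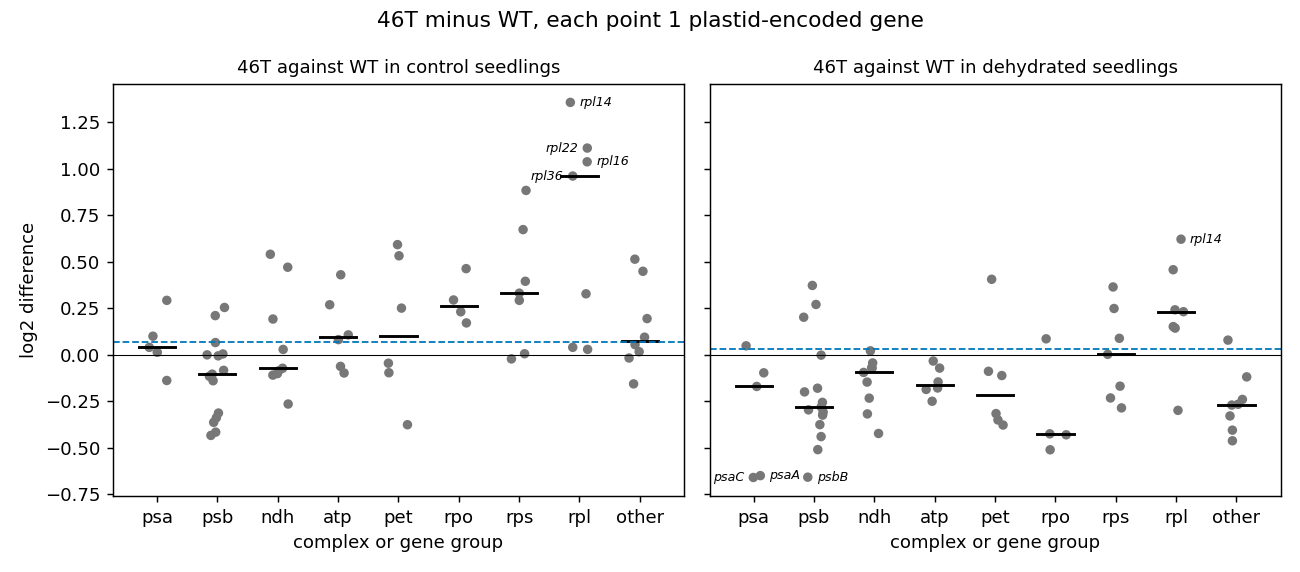
Log2 difference, 46T minus WT (vertical axis), of the 67 plastid-encoded genes by complex (horizontal axis) in control (left) and dehydrated (right) seedlings; each point is 1 gene, the bar is the group's median and the dashed line the median over all 14495 tested probe sets (0.07 and 0.03). No point was called by limma; in dehydrated seedlings 49 of 67 genes lie below 0.

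The largest of these differences was that of psaC, at -0.66 ± 0.20 (limma adjusted p = 0.346): all 3 dehydrated arrays of 46T, given above, were below all 3 of WT. psbB read 11.83, 12.08 and 11.59 in dehydrated WT and 10.97, 11.32 and 11.24 in dehydrated 46T, without overlap (-0.66 ± 0.24; limma adjusted p = 0.41). For psaA the dehydrated arrays read 11.16, 10.51 and 10.62 in WT and 10.03, 10.16 and 10.15 in 46T. They did not overlap, and the difference was -0.65 ± 0.38 (limma adjusted p = 0.586). The other low ends were petN (-0.38 ± 0.38), ndhD (-0.42 ± 0.23), atpH (-0.25 ± 0.22), rpoB (-0.51 ± 0.35), rps2 (-0.29 ± 0.27), rpl20 (-0.30 ± 0.27) and accD (-0.46 ± 0.27). The high ends were psaJ (0.05 ± 0.27), psbK (0.37 ± 0.19), ndhC (0.02 ± 0.11), atpB (-0.03 ± 0.10), petG (0.41 ± 0.31), rpoA (0.08 ± 0.22), rps3 (0.36 ± 0.37), rpl14 (0.62 ± 0.42) and matK (0.08 ± 0.17).

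Pairs of genes from 1 transcription unit had higher correlations than pairs from different units. After removing each array's plastid median, the median correlation over the 12 arrays was 0.37 for 108 pairs within a unit, 0.36 without WT control array 1, and -0.01 for 2103 pairs from different units. Leaving out the unit from rpl23 to rpoA, 87 pairs had a median of 0.25. Genes of different units that are next to each other among the 67 had a median of 0.12 over 25 pairs. All pairs share the same 12 arrays and their scaling, so these are descriptions.

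The nuclear partners of the plastid genes were followed in lists of 289 entries, of which 26 were matched by name to a tested probe set. Since 8794 probe sets carry no name, an unmatched entry was not shown to lack a probe set or a signal. Limma called 0 of the 26 in each of the 5 comparisons, with unadjusted p-values below 0.05 for 5 after dehydration in WT, 4 in 46T, 2 and 3 between the lines in control and dehydrated seedlings, and 0 for the interaction. The shares of all probe sets below 0.05 were 26.5%, 24.3%, 13.7%, 9.64% and 2.01% in the same order. The shares of all probe sets called were 11.6%, 10.2%, 0.359%, 0.152% and 0%. For the 17 of photosynthesis and carbon fixation the median was -0.15 after dehydration in WT and -0.13 in 46T. Among them were PIFI, which works with the NDH complex (-0.37 and -0.46), and ATPC2, a subunit of the ATP synthase (-0.32 and -0.47). PGRL1B, the only tested gene of the nuclear pet list, was at -0.31 and -0.53, the lowest of the 17 in 46T. LHCB4.2, an antenna protein that marks leaf mesophyll, was at -0.17 and -0.13. Furthest above 0 in WT were SBPASE (0.21 and 0.19) and PRK (0.18 and -0.01), enzymes of carbon fixation, and LHCB4.3 (0.21 and 0.12). The 9 for processing of plastid RNA had medians of 0.45 and 0.17, among them CRR21 (0.69 and 0.43) and LPA66 (0.52 and 0.05), which serve in editing. In the lists for nuclear parts of plastid transcription and of the plastid ribosome, 0 of 44 and 0 of 34 entries were matched by name, so these genes were not examined.

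Markers of other tissues gave few values. Of 40 root markers 4 were matched by name, 3 were tested and 0 called in any comparison. Their medians were -0.22 and -0.24 after dehydration in WT and 46T, with 1 unadjusted p below 0.05, in 46T. Of 19 guard cell markers 3 were matched by name and only FMA, a regulator of guard cell formation, was tested. It fell in dehydrated 46T (limma adjusted p = 0.0105). Its dehydrated 46T arrays read 5.36, 6.09 and 5.81, each below that array's 40th percentile (6.46 to 6.60), so no fold is given. Of 10 tested mitochondrial genes, chosen by symbol, cox2, a subunit of cytochrome oxidase, rose in dehydrated WT (0.72; limma adjusted p = 0.0387). This was 1 called of the 10, against 11.6% of all probe sets. Control and dehydrated arrays of cox2 did not overlap in either line, and its difference of 0.53 in 46T was not called (limma adjusted p = 0.131). The medians of the 10 were 0.12 and -0.06 after dehydration in WT and 46T, and -0.30 and -0.44 between the lines in control and dehydrated seedlings. Between the lines, 1 of the 10 in control and 5 in dehydrated seedlings had an unadjusted limma p below 0.05, with 0 called. Over all probe sets these shares were 13.7% and 9.64%.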

How the data were processed

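RNA of 12 seedling samples, 3 in each of 4 groups, was hybridised to ATH1 arrays, and samples were grouped by their titles. The authors deposited 1 log2 signal per probe set and array; per the submitters' processing notes the tool was MAS5, with no version given in the sources used here. On the linear scale, trimmed by 2% on both sides, each array's mean lay from 500.05 to 500.06, so the table was not normalized again. A MAS5 signal subtracts mismatched probes, so low signals vary more on the log2 scale.

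The 64 control probe sets were left out, and of the other 22746 those were tested whose signal exceeded the array's 40th percentile on at least 3 arrays. Group means were fitted on all 12 arrays in R 4.3.3 with limma 3.58.1 (lmFit, eBayes with an intensity trend), and the pipeline was tested on simulated data. Of all probe sets, 13513 name 1 gene, 503 several and 8794 none. Names and neighbours came from the platform annotation and the RefSeq table of assembly TAIR10.1, and another 8 probe sets, assigned to a plastid gene more than once, were left out of the members.

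The members, lists, transcription units and tests were chosen with earlier results of these data known. Named are called members, the highest and lowest of each complex in each comparison (3 of each for psb and ndh after dehydration), psaC, ndhE, psbI, psbK and rbcL, the 3 members most like a called one, and up to 4 called or 2 other genes of each list; genes outside this rule, such as those of the rpl23 to rpoA unit, were chosen after their values were seen. Mitochondrial genes were taken by symbol. Replicate numbers were not used to pair the samples in the main fit, and whether they mark pairs is not settled. Of 12 same-numbered pairs of arrays, 5 had correlated deviations above 0.1 (range -0.12 to 0.35). For dehydration in WT the correlations were 0.35, 0.29 and 0.07, against -0.21, -0.13 and -0.02 with other numbers. Between the lines in control seedlings they were -0.02, 0.02 and -0.12, against 0.02, 0.01 and 0.04.

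The 22 alternatives were quantile normalization, centring on all tested probe sets or on the members, a pseudocount of 50 on the linear signal, a floor at the 40th percentile, no filter, a filter on all arrays, array weights, the replicate number as a block, only the groups compared, and each of the 12 arrays left out.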

Additional observations from a re-analysis of the deposited data

How the results depend on the processing

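The number of plastid genes called after dehydration in WT, 2, was 4 with quantile normalization (psbC and rbcL added), 5.97% against 12.1% of all probe sets. It was 3 with array weights (petN added), 4.48% against 23.9%, and 1 with only the groups compared, 1.49% against 5.18%. Leaving out 1 array it was 1 to 16, with 5.75% to 16.4% of all probe sets called. The median of 0.27 was 0.10 with arrays centred on the plastid genes, -0.04 with array weights and 0.05 to 0.47 leaving out 1 array. In 46T the count of 1 was 2 with quantile normalization (2.99% against 11.4% of all probe sets) and 0 centred on the plastid genes (against 7.44%). It was 3 with array weights (4.48% against 26%) and 2 with only the groups compared (2.99% against 21.2%). Leaving out 1 array it was 0 to 2, with 5.33% to 16.4% of all probe sets called. The median of -0.04 in 46T was 0.13 centred on the plastid genes. Between the lines in control seedlings the count of 0 was 1 centred on the plastid genes (rpl14), 1.49% against 1.95% of all probe sets. It was 16 with array weights (6 higher, 10 lower), 23.9% against 20.2% of all probe sets in that setting. Leaving out 1 array it was 0 to 10, with 0.0897% to 11.3% of all probe sets called. The median of 0.05 was -0.30 centred on the plastid genes and -0.18 with array weights, where psaA turned to -0.76 (limma adjusted p = 0.0328). The interaction's median of -0.26 was 0.08 centred on the plastid genes, 0.01 with array weights and -0.47 to -0.09 leaving out 1 array. With the replicate block the counts were 2, 1, 0, 0 and 0 and the medians 0.27, -0.04, 0.05, -0.18 and -0.26, as without it. The cause of these changes was not tested. Array weights ran from 0.142 (WT control array 1) and 0.305 (WT control array 2) to 3.84 (WT control array 3), and their estimation stopped before its tolerance was reached. With only the groups compared there is no interaction value, and as each gene had 1 probe set, averaging probe sets changed nothing. Signals near background limit petD, rpoB, rps14 and ndhF most.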

Other observations

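Of the 8 probe sets assigned to more than 1 copy of a plastid gene, 7 were tested, and ndhB was not. On WT control array 1, ycf1, which encodes a chloroplast envelope protein, read 10.81 against 11.36 to 12.42 on the other 11 arrays. ycf2 read 7.28 there, and the lowest of the other arrays was WT control array 2 at 7.18. Both probe sets of rps12, of the small ribosomal subunit, were lowest on WT control array 2, at 9.67 and 12.61. rpl2 stayed between 14.26 and 14.53 on all 12 arrays.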
